A study of Danio rerio with 6 samples.

Results

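Transcripts with their highest level in adult males were taken from the whole-body transcript table of Danio rerio. A transcript was a member where the mean of the 2 males was at least 50 normalised counts and at least 3 times both the mean of the 2 females and the mean of the 2 juveniles. This gave 117 of 13927 transcripts, or 0.840% of the table. The members were therefore chosen from the measured values, and their differences between males and the other fish are described without a test.

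Libraries of total RNA came from whole bodies, 1 fish to a library, with 2 fish each of adult males, adult females and juveniles at 28 dpf (days after fertilisation). No treatment was given before euthanasia, and neither a strain nor an age of the adults is given in the sources used here. The labels give no sex for the juveniles, which the study took to be males from their expression. A normalised count is a read count divided by a size factor for that fish. The table numbers its juveniles 2 and 3, while the labels number them 1 and 2, so the table's numbers are kept.

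In adult zebrafish the gonads are a large source of RNA that differs between the sexes. The testis transcribes many genes that are little used in other organs, as its germ cells divide, pass through meiosis and form sperm, while its Sertoli and Leydig cells support them and make androgens. The liver also differs between the sexes, since oestrogen drives it to make yolk proteins in females. Juvenile zebrafish pass through a stage in which the gonad resembles an ovary before it becomes a testis in males. In a whole-body library, fewer cells of a type and less RNA per cell cannot be told apart.

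The table pairs its transcripts with identifiers of the assembly (MSTRG, a locus number and a transcript number) and with no gene names, so no member could be assigned to a gene, a pathway or a tissue. The male, female and juvenile labels could therefore not be checked here against marker genes. The study itself reports named female and male genes that were higher in the adults of that sex. Members are called here by their rank in male mean, from 1 for the most abundant to 117. Transcript lengths are not in the table, so a rank orders reads and not levels per length. Nearly all transcripts of the table differ between females and juveniles. Where the mean over the fish reached 100 normalised counts (9528 transcripts), females and juveniles had means within 1.5-fold of each other in 77, against 1811 for females and males and 4370 for juveniles and males. A transcript read in males and about equally little in females and juveniles is thus mostly outside the table, so the 117 members are nearly all male-highest transcripts that also separate females from juveniles. The recovered reads were between 13980849 and 18635087 per fish, which is part of each library.

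The members covered a wide range of abundance. Their male means ran from 53.9 to 32202 normalised counts with a median of 294. The 4 most abundant members lay between 11106 and 32202. At least 1000 normalised counts were reached by 30 members and at least 200 by 70, and the remaining 47 were lower. Together the members took 1.40% of the recovered reads in male 1 and 1.33% in male 2. Their share was 0.168% and 0.183% of the reads of females 1 and 2, and 0.0467% and 0.0366% of those of juveniles 2 and 3. The 10 most abundant members held 69.1% of the summed normalised counts of the members in male 1 and 60.8% in male 2.

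**Figure D1:**
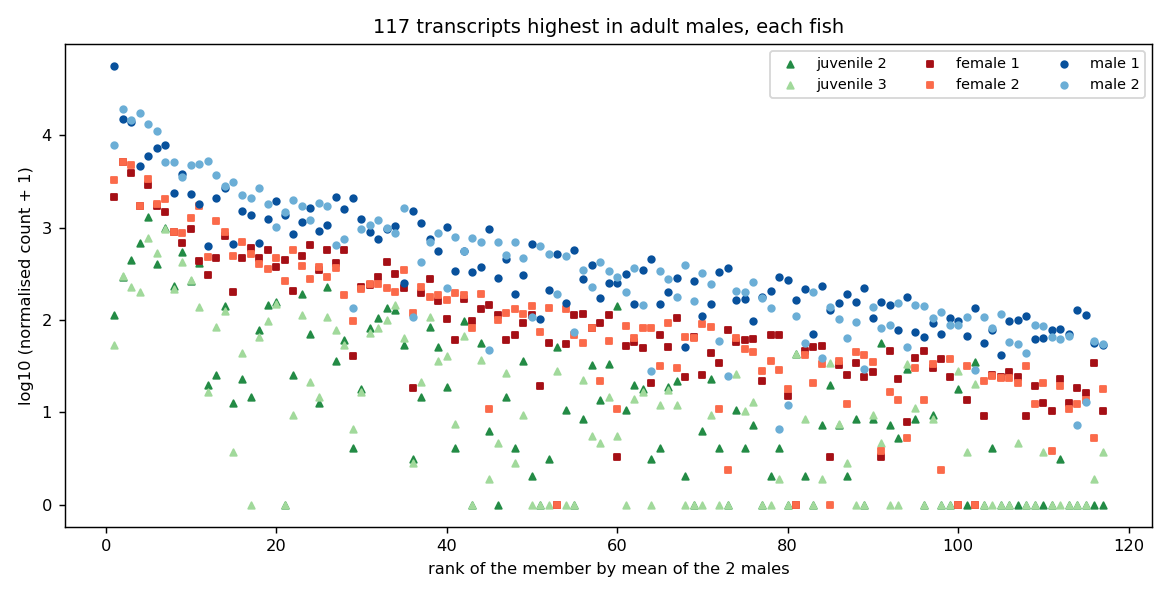
Normalised counts of the 117 members in each of the 6 fish, on a log10 (normalised count + 1) scale, against the rank of the member by male mean. Circles are males, squares females and triangles juveniles, and the juveniles are at 0 on the scale for 22 members without a read in either of them.

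The most abundant member was MSTRG.29395.1. Male 1 had 56468 normalised counts and male 2 had 7937, against 2170 and 3305 for females 1 and 2 and 112 and 52.8 for juveniles 2 and 3. Each male was above each female and each female above each juvenile, but the males differed from each other by 7.11 times. This 1 transcript held 32.5% of the summed normalised counts of the members in male 1.

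The member of rank 2, MSTRG.4497.1, had closely agreeing fish in every group. The males had 15191 and 19157 normalised counts, the females 5119 and 5099 and the juveniles 291 and 296. Its male mean was 3.36 times the female mean and 58.5 times the juvenile mean. The member of rank 3 had the same order of groups, from 14007 and 14832 normalised counts (males) to 3880 and 4748 (females) and 450 and 228 (juveniles). Both lie near the lower limit of the rule against females and far from it against juveniles.

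The members of ranks 4 and 5 were also among the most abundant, and in both male 2 was the higher male. For rank 4 these were 4613 and 17599 normalised counts, against 1698 and 1722 for females and 683 and 198 for juveniles. For rank 5 the males had 6037 and 13282, the females 2877 and 3399, the juveniles 1307 and 776. The males were apart by 3.82 and 2.20 times in these members, while the females differed little, and less than the juveniles. In both, limma called females above juveniles (log2 differences 2.21 and 1.63). These calls were lost under some of the other scalings, with lowest values of 1.28 and 0.70, and kept under others.

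For rank 6 the males had 7239 and 11115 normalised counts, against 1737 and 1803 for females and 404 and 536 for juveniles. For rank 7 the males had 7886 and 5204, against 1464 and 2066 for females and 1000.02 and 962 for juveniles. In rank 7 the females and juveniles were close, with a ratio of 1.80 and a fitted female minus juvenile value of 0.83 on the log2 scale (standard error 0.25, adjusted p from limma 0.0178). This call was lost under each of the 4 other scalings (values from -0.11 to 0.52) and without female 2, juvenile 2 or juvenile 3. Rank 9 had the closest female and juvenile means of the 109 members in which females were above juveniles (ratio 1.62), with 3800 and 3556 normalised counts for males, 683 and 874 for females and 541 and 421 for juveniles. The males of this member were nearly equal, and its female minus juvenile value of 0.69 (adjusted p from limma 0.0141) also lost its call under each of those scalings (-0.24 to 0.39) and without female 2 or juvenile 3.

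Rank 8 had males of 2377 and 5151 normalised counts, females of 892 and 903 and juveniles of 235 and 217. Rank 10 had males of 2345 and 4751, females of 979 and 1290 and juveniles of 266 and 273. In both, male 2 had over 2 times the level of male 1. Ranks 11 to 30 continued the same order of groups, and in them the male mean was between 3.06 and 16.2 times the female mean. Rank 14 had the closest males of these, with 2692 and 2834 normalised counts, and every female (814 and 899) and juvenile (140 and 123) lay well below them.

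With the deposited size factors, the rule was met by a smaller margin against females than against juveniles. The other scalings raised males against females by 0.57 to 1.01 on the log2 scale, so the ratios to females hold for the deposited scaling. They also lowered females against juveniles, in rank 2 from 4.12 to between 3.18 and 3.81 on that scale. Ratios of females to juveniles thus hold for the deposited scaling too. The ratio of the male to the female mean had a median of 3.81, and in 68 members (58.1%) it was under 4. It was at least 5 in 30 members and at least 10 in 12. The ratio of the male to the juvenile mean had a median of 37.0, and it was at least 10 in 99 members. For these medians a group mean of 0, and a juvenile mean under the floor, was set at a floor of 3 reads over the fish of the group, which is 1.93 normalised counts for females and 1.49 for juveniles, and floors cover counting error only.

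Just inside the 3-fold limit were members with ratios of 3.04, 3.05 and 3.06 of the male to the female mean, and just outside were transcripts with 2.99, 2.98 and 2.98. At the limit on abundance, the lowest members had male means of 53.9, 57.6 and 62.5 normalised counts, and the highest transcripts excluded had 44.3, 44.2 and 44.0. By the same rule 3342 transcripts were highest in females and 1590 in juveniles. These numbers are set in part by the choice of transcripts in the table.

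The 2 males agreed less in the members than in the table at large. The higher male was within 1.5-fold of the lower in 37 members (31.6%), within 2-fold in 63 (53.8%) and within 3-fold in 87 (74.4%). Of all 9959 transcripts with a male mean of at least 50 normalised counts, 89.0% were within 2-fold and 95.8% within 3-fold. The median ratio was 1.88 in the members and 1.23 in those 9959 transcripts. The 2 females of the members were within 2-fold in 77 (65.8%), with a median ratio of 1.60. In both values the 4 members with 0 reads in both females are counted as apart, although their females are equal. The rule used the mean of the males and set no limit on their ratio. A transcript could thus become a member through 1 high male, so the rule itself can lower the agreement in the members. In 79 members the lower male was under 3 times the higher of the female and juvenile means.

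Agreement of the males had no single order with abundance among the members. They were within 2-fold in 16 of the 30 members with a male mean of 1000 normalised counts or more (53.3%), in 18 of the 40 from 200 to under 1000 and in 29 of the 47 below 200 (61.7%). Over all transcripts of the same abundance these shares were 92.5%, 91.9% and 83.2%. In transcripts highest in females by the same rule the 2 females were within 2-fold in 85.6%, and in those highest in juveniles the 2 juveniles were in 84.8%. These shares are descriptions, and the difference between the lists was not tested.

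**Figure D2:**
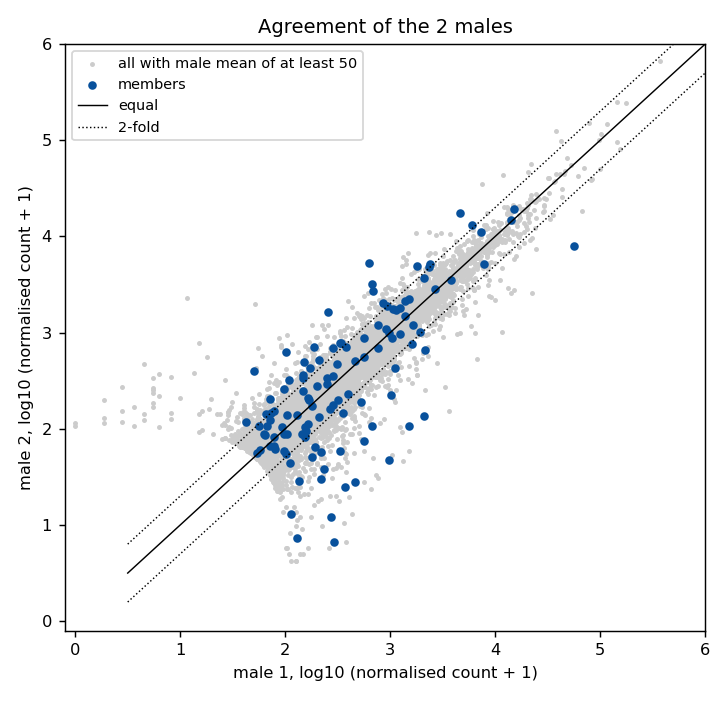
Male 2 against male 1, on a log10 (normalised count + 1) scale, for all 9959 transcripts with a male mean of at least 50 normalised counts (grey) and for the 117 members (blue). The solid line marks equal counts and the dotted lines a 2-fold difference, and 54 members lie outside the dotted lines, 26 on the side of male 1 and 28 on the side of male 2.

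Male 1 was higher in 52 members and male 2 in 65. Male 2 was over 2 times higher in 28 members and male 1 in 26. Wider differences were mostly on the side of male 1, which was over 3 times higher in 21 members against 9 for male 2, and over 8 times in 9 against 1. Among the 10 members with the largest ratio between the males, male 1 was higher in 9.

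The largest ratio was in rank 79, where male 1 had 289 normalised counts and male 2 had 5.59, the latter from 7 reads. Both females were above male 2 in this member, with 68.5 and 28.2 normalised counts, and the juveniles had 3.17 and 0.925. In rank 45 the fish also differed within both adult sexes, with 962 and 46.3 normalised counts for males, 146 and 9.87 for females and 5.29 and 0.925 for juveniles.

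Ranks 80, 114 and 64 had ratios of 24.5, 19.9 and 17.0 between the males, and male 1 was the higher in each. Rank 80 had males of 274 and 11.2 normalised counts and females of 13.9 and 16.9, rank 114 had males of 127 and 6.39 and females of 17.4 and 11.3, and neither had a juvenile read. Rank 64 had males of 461 and 27.2, females of 19.7 and 81.7 and juveniles of 2.12 and 0. In ranks 80 and 114 male 2 was below both females, and in rank 64 it was between them.

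Rank 12 was the 1 member in which male 2 was over 8 times higher than male 1, from 632 to 5332 normalised counts. The females had 306 and 476 and the juveniles 19.0 and 15.7, so that male 1 was still above every female. Rank 29 had the opposite order, with 2075 and 134 normalised counts for males, 39.5 and 97.2 for females and 3.17 and 5.55 for juveniles. Ranks 12 and 29 were picked after their values were seen.

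In 102 members the lower male was above all 4 females and juveniles, against 6.24% of all transcripts and 8.31% of those with a male mean of at least 50, a separation that the rule itself favours. In the other 15 members the lower male was at or below another fish, and in 13 of these it was male 2. In 12 of the 15 the lower male was below the female mean. At least 3 times both other means was reached by the lower male in 38 members. At least 3 times each of the 4 other fish was reached by it in 21 members, and rank 6 is the most abundant of these. The next most abundant are ranks 9, 21, 30 and 31, with male ratios of 1.07, 1.07, 1.29 and 1.19.

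The clearest separations were in weaker members. In rank 111, whose lower male was 6.97 times the highest other fish, the males had 77.4 and 64.7 normalised counts, the females 9.29 and 2.82 and the juveniles 0. In rank 77, at 6.39 times, the males had 178 and 171, the females 20.9 and 26.8 and the juveniles 0. In rank 113, at 5.64 times, the males had 70.3 and 65.5, the females 11.6 and 9.87 and the juveniles 0. The males of these 3 members agreed within 1.5-fold, and they were picked after their values were seen. Among more abundant members, rank 30 had males of 1242 and 966 normalised counts, females of 225 and 218 and juveniles of 16.9 and 15.7, with little spread in any group.

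Without male 1 the rule gave 149 transcripts, of which 78 were among the 117 members, and without male 2 it gave 132, of which 77 were. Without female 1 it gave 160 and without female 2 it gave 183, with 95 and 93 of the members among them. Leaving out juvenile 2 or juvenile 3 gave 136 and 124, with 117 and 114 of the members. Fewer members were kept without a male than without a juvenile. Scalings estimated anew on the table gave between 374 and 678 transcripts, since they raised males against females.

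**Figure D3:**
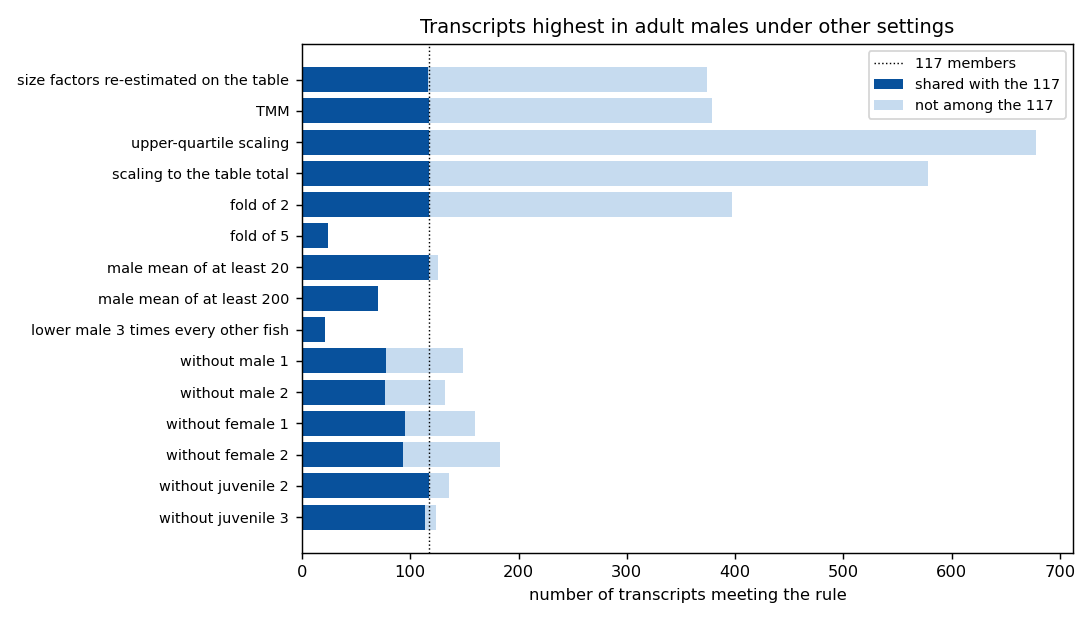
Number of transcripts meeting the rule under each other setting, with those shared with the 117 members in dark blue and the others in light blue. The dotted line marks 117, and with upper-quartile scaling the number rises to 678 while all 117 members are kept.

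Females were above juveniles in 109 of the 117 members (93.2%) and below them in 8, with 107 above under upper-quartile scaling and 110 above without juvenile 2. Over all transcripts the female mean was above the juvenile mean in 56.8% and below it in 43.2%, and over those with a male mean of at least 50 normalised counts these shares were 59.3% and 40.7%. In most members the levels thus fell from males to females to juveniles. In all 109 members both females were above both juveniles, and in 7 of the 8 others both were below (56.5% and 43.1% of all transcripts, and 59.2% and 40.6% of those with a male mean of at least 50). In transcripts highest in females by the same rule, the male mean was above the juvenile mean in 62.6%. In those highest in juveniles, the male mean was above the female mean in 83.7%. These shares were not compared by a test.

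Females were tested against juveniles with limma over the whole table. Of the 13748 transcripts tested, 99.1% were called at an adjusted p under 0.05 (56.1% higher and 43% lower in females). The table is thus close to a list of transcripts that differ between these groups. The members could be tested in 117 of 117 cases, 105 of them also by the counts of females and juveniles alone. Of the members 111 were called, 105 higher and 6 lower in females. This fit took in the males, both in the filter and in the error. In a fit of females and juveniles alone, 103 of the 105 members that could be tested were called, 97 higher and 6 lower. The share over the table is not given for that fit, so its counts are no result about the members. With edgeR 112 were called (99.8% of all transcripts), 105 higher (56.7%) and 7 lower (43.1%). With DESeq2 all 117 were called (100%), 109 higher (56.8%) and 8 lower (43.2%). The total is near the share over the table and is no result about the members. The split by direction was more to the side of females than over the table. However, the rule bounded both the female and the juvenile mean by the male mean. This split and the medians that follow thus describe chosen members and are no independent test. The median log2 difference of females from juveniles was 3.25 in all 117 members and 1.09 over all transcripts tested. Both values hold for the deposited scaling, since the other scalings lowered females against juveniles.

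**Figure D4:**
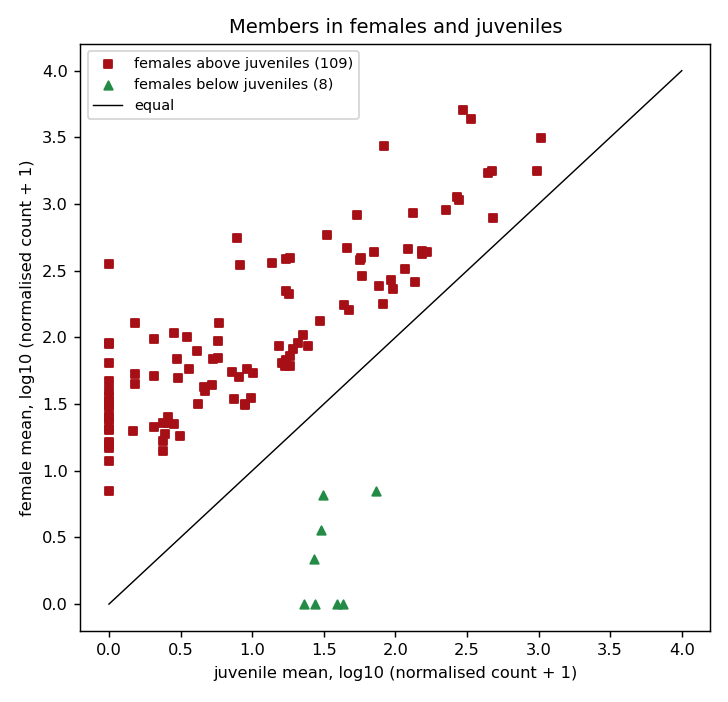
Female mean against juvenile mean of the 117 members, on a log10 (normalised count + 1) scale. The line marks equal means, with 109 members above it (squares) and 8 below it (triangles), and the female means of these 8 reach no higher than 6.1 normalised counts.

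Among the 109 members with higher females, 87 had reads in a juvenile. In the 74 of these with over 3 juvenile reads, the female mean was between 1.62 and 81.1 times the juvenile mean, with a median of 5.84. The highest of these ratios was in rank 17, with females of 597 and 519 normalised counts, juveniles of 13.8 and 0 and males of 1389 and 2114. Its juvenile reads all came from juvenile 2, so this ratio is also poorly known (standard error 1.15 on the log2 scale). The other 13 of the 87 members had 1 to 3 juvenile reads, so that their ratios are poorly known. Rank 50 was among them, with females of 113 and 141 normalised counts and juveniles of 1.06 and 0, the former from 1 read, which gives a ratio of 239.6 (95% exact binomial interval 42.5 to 9511, for counting error only). In this member the males had 670 and 107 normalised counts, so that male 2 was below both females. Females differed from juveniles by 6.47 on the log2 scale in this member (standard error 0.92, adjusted p = 0.00103 from limma). The member was picked for its high ratio of females to juveniles, so this adjusted p adds no support.

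The other 22 had 0 reads in both juveniles. Their male means were between 62.5 and 1435 normalised counts and their female means between 6.05 and 356. Rank 21 was the most abundant of them. The males had 1384 and 1486 normalised counts and the females 449 and 264. Means of males and females were 964.6 and 239.56 times the floor of 3 reads over the 2 juveniles. These are lower bounds of the ratios to juveniles where the juvenile level lay under that floor. In a further 21 members 1 of the juveniles had 0 reads. At this depth, levels under the floor could give 0 reads.

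Ranks 78, 52 and 68 had 1 or 2 reads in juvenile 2 and 0 in juvenile 3, and the lower ends of the intervals of their female to juvenile ratios were 17.1, 24.5 and 14.4. Rank 78 had males of 207 and 133 normalised counts, females of 68.5 and 35.2 and juveniles of 1.06 and 0. Rank 52 had males of 209 and 512, females of 55.7 and 135 and juveniles of 2.12 and 0. Rank 68 had males of 49.8 and 395, females of 23.2 and 64.8 and juveniles of 1.06 and 0. In rank 68 male 1 lay between the females.

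In 8 members females were below juveniles. These were of middle or low abundance, with male means between 81.6 and 356 normalised counts, and all 8 were at least 20.3 times higher in males than in females. Among the 109 others the highest ratio of males to females was 16.2. The male mean was between 3.06 and 9.29 times the juvenile mean in these 8. Such a pattern is high in males, intermediate in juveniles and close to 0 in females.

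In 4 of the 8 there were 0 reads in both females. MSTRG.3018.1 (rank 53) was the most abundant, with 521 and 190 normalised counts for males, 0 for both females and 49.7 and 26.8 for juveniles. Means of males and juveniles were 184.5 and 19.86 times the floor of 3 reads over both females. These are lower bounds of the ratios to females where the female level lay under that floor. Females differed from juveniles by -5.23 on the log2 scale (standard error 0.66, adjusted p = 0.000666 from limma). This member was picked among those with females below juveniles, so its adjusted p adds no support. Rank 81 had males of 165 and 110.3 normalised counts and juveniles of 42.3 and 41.6, and rank 100 had males of 96.9 and 87.1 and juveniles of 16.9 and 26.8. In both, every male was above every juvenile.

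Rank 102 also had 0 reads in both females, with males of 135 and 28.0 normalised counts and juveniles of 33.9 and 19.4. Its male 2 lay between the juveniles. Rank 85 had 2 reads in female 1 and 0 in female 2, while the males had 129 and 138 normalised counts and the juveniles 19.0 and 33.3. Rank 94 had males of 178 and 49.5, females of 6.97 and 4.23 and juveniles of 28.6 and 32.4.

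The 2 juveniles differed in the remaining members of this kind. MSTRG.36887.1 (rank 60) had males of 249.9 and 293 normalised counts and females of 2.32 and 9.87, while juvenile 2 had 139.7 and juvenile 3 had 4.63. Juvenile 3 was thus between the females, and the difference of females from juveniles did not pass the test (log2 difference -2.23, standard error 1.47, adjusted p = 0.179 from limma). Without juvenile 2 its sign turned (log2 difference 0.094, adjusted p = 0.920), and without juvenile 3 it passed (-4.55, adjusted p = 0.00810). Rank 91 had the same form, from 55.0 normalised counts for juvenile 2 to 3.70 for juvenile 3, against males of 155 and 81.5 and females of 2.32 and 2.82 (log2 difference of females from juveniles -2.19, standard error 1.15, adjusted p = 0.104 from limma).

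**Figure D5:**
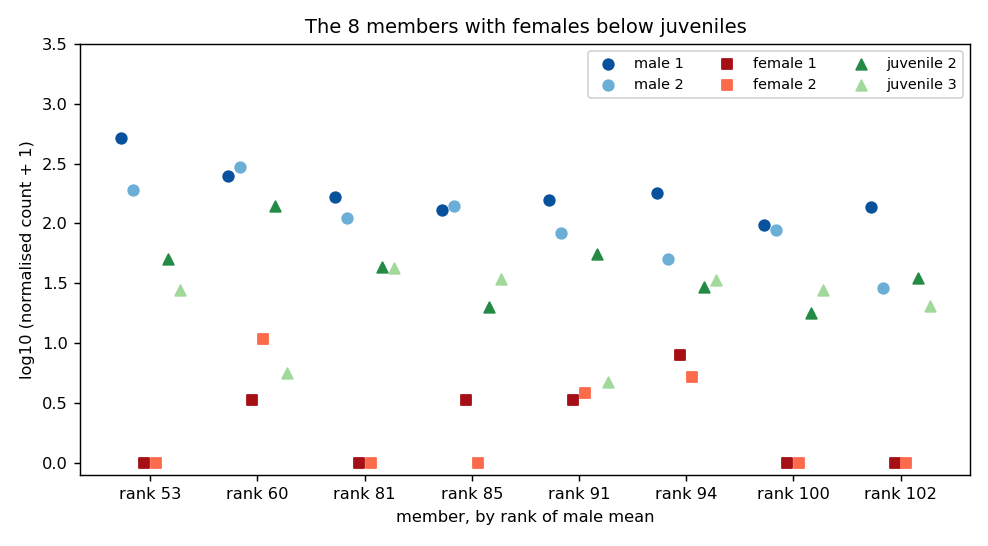
The 8 members in which the female mean was below the juvenile mean, with each fish as a point on a log10 (normalised count + 1) scale. Both females are at 0 for ranks 53, 81, 100 and 102, and juvenile 2 lies far above juvenile 3 for ranks 60 and 91.

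The other 4 members not called in females against juveniles all had females above juveniles. They were ranks 11, 45, 73 and 79, with adjusted p of 0.0685, 0.0908, 0.0875 and 0.0550 from limma. In each the fish of at least 1 group were over 2-fold apart. In rank 11 the females had 438 and 1705 normalised counts and the juveniles 415 and 139, and the males had 1806 and 4929. In rank 73 the females had 77.8 and 1.41, the males 366 and 24.0 and the juveniles 0.

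The 117 members came from 114 assembled loci of the 13580 in the table. A locus of the assembly can hold several transcripts that share exons, so reads of such transcripts may be split by the counting. The table held 2 loci with more than 1 member. The first had 3 members (ranks 22, 52 and 54), in which male 2 was higher than male 1 and female 2 higher than female 1 throughout. The second had 2 (ranks 50 and 89), with male 1 over 6 times higher than male 2 in both. A further transcript of the first locus missed the rule, with a male mean of 217 and a female mean of 99.1 normalised counts.

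In all, 6 loci held a member and another transcript outside the rule. The member of rank 37 had males of 1116 and 429.9 normalised counts and females of 197 and 225, while the other transcript of its locus had males of 800.5 and 574 and females of 2564 and 2238. The sexes were thus in opposite order in 2 transcripts of 1 locus. The locus of rank 25 held another transcript with a male mean of 2181 and a female mean of 1096 normalised counts, and 3.17 and 0 normalised counts in the juveniles. These loci were picked after their values were seen.

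Some members had nearby locus numbers. There were 9 runs of 19 member loci with numbers at most 3 apart, and in 8 of these runs all members were higher in the same male (male 2 in 7 and male 1 in 1). In 9 of the 10 neighbouring pairs in these runs the same male was higher, against 56.2% of 6541 such pairs among all transcripts with a male mean of at least 50. The males of those transcripts were closer (median ratio 1.23, against 1.88 in the members), so these shares are not matched. Over the whole table, a share of 93.7% of loci had another locus of the table at most 3 numbers away. That share is for a far larger set of loci, so it is no baseline for the number of runs among members. The members' runs and pairs were not tested. The 1 run of 3 loci held ranks 69, 78 and 99, with male to female ratios of 3.36, 3.28 and 3.19 and 1 juvenile read in all. Ranks 51 and 68 formed another run. Their males had 101 and 632 normalised counts and 49.8 and 395, so that male 2 was over 6 times higher in both. Whether numbers of the assembly follow positions in the genome is not given in the sources used here.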

How the data were processed

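Each of the 6 zebrafish gave 1 whole-body RNA library. According to the study's methods and the submitters' processing notes, reads were mapped to GRCz11 with HISAT2 2.1.0, transcripts were assembled and merged with StringTie 1.3.4, reads were counted with featureCounts 1.6.3, and DESeq2 2.11.40.2 was used on Galaxy. As deposited, the signal values are counts of reads per assembled transcript that the authors scaled with 1 size factor per fish by the median of ratios. All values (100%) were whole multiples of 1 read within 0.01 of a read. In a single fish, 3 reads correspond to between 2.40 and 4.23 normalised counts, and recovered reads summed to between 13980849 and 18635087. The table also holds the authors' own fold changes, standard errors, test statistics, p-values, a female minus male difference and a selection mark, none of which was used.

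Members and rules were chosen with earlier results of these data known. The members were found by the rule on group means. Those described were the 10 of highest male mean, the 5 of highest and the 5 of lowest ratio of females to juveniles (with at least 10 reads over these fish), the 5 of largest ratio between the males and those nearest the limits, and other members named were picked after their values were seen. Of the members, identifiers are printed for 4. The 8 members with females below juveniles are all given, since they are few. Females and juveniles were compared with limma-trend (version 3.58.1, under R 4.3.3) on normalised counts as log2 with a pseudocount of 1. Transcripts needed 10 normalised counts in 2 or more fish. The model held 3 groups of 2 fish, which leaves 3 residual degrees of freedom, and p-values were adjusted by Benjamini-Hochberg over the whole table. A log2 difference on this scale understates the change of weakly read transcripts. With 2 fish a group, and with transcripts chosen on this comparison, standard errors and adjusted p may be too low, and p-values measure only the spread between these fish. Alternatives were other scalings, limits, a pseudocount of 10, no filter, recovered reads tested with edgeR 4.0.16 or DESeq2 1.42.0, fewer groups in the fit and leaving out each fish. The tests were tested on simulated data, in which most transcripts were equal between the groups, unlike in this table. Sequences and gene names are not given because the transcripts could not be matched to a reference. Python 3.11.15 with pandas 2.3.3, numpy 2.4.6 and matplotlib 3.10.9 was used for tables and plots.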

Additional observations from a re-analysis of the deposited data

How the results depend on the processing

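The number of members depended on the size factors. The rule gave 374 transcripts with size factors estimated anew by the median of ratios, 379 with TMM, 678 with upper-quartile scaling and 578 with scaling to the table total, and 116 of the 117 members were among the first and all 117 among each of the others. These scalings raised males against females by 0.59, 0.57, 1.01 and 0.80 on the log2 scale. They lowered females against juveniles, in rank 2 from 4.12 to 3.45, 3.71, 3.18 and 3.81. Each scaling was estimated on the transcripts of the table alone, of which nearly all differ between females and juveniles. A fold of 2 gave 397, a fold of 5 gave 24, a male mean of at least 200 gave 70, and the lower male at 3 times every other fish gave 21. Leaving out each fish gave 124 to 183. Females were above juveniles in 109 of the members under all other settings except upper-quartile scaling (107) and leaving out juvenile 2 (110).

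In females against juveniles, 99 to 117 members were called with a pseudocount of 10, TMM, table totals, no filter, edgeR, DESeq2 or 2 groups in the fit. With the new size factors 86 were called, and with upper-quartile scaling 69 (63 of them higher in females). Apart from edgeR and DESeq2, shares over the table are not given for these settings or for leaving out each fish. A fall in these counts is thus no result about the members. Leaving out each fish gave 88 to 109 calls, 81 to 103 of them higher and 5 to 7 lower in females. The sign turned for ranks 7 and 9 with upper-quartile scaling (-0.11 and -0.24). For rank 60 the log2 difference was -4.55 without juvenile 3 and turned to 0.094 without juvenile 2. Of the other values of described members, 38 fell short of the threshold that the reported value passed, 11 passed where it did not and 365 kept their side. Males were within 2-fold in 63 to 66 members under each scaling. No paired analysis was possible because each fish is a separate animal, and the table's juvenile columns 2 and 3 could not be matched to the juveniles that the labels number 1 and 2.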

Other observations

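Of the 4 members with 0 reads in both females, 3 came from loci numbered 2941 to 3018, a pattern noticed after the values were seen. The table holds 41 transcripts with locus numbers in this range, and 10 of them (24.4%) had 0 reads in both females, against 2.36% of all transcripts of the table. The ends of the range were set by these members, and the 10 include all 3, so the higher share is in part built in. The male means of these 10 were between 21.5 and 356 normalised counts and their juvenile means between 7.74 and 283. The male mean was above the juvenile mean in 8 of the 10. Of 10 transcripts in the whole table with 0 reads in both females and a male mean of at least 50 normalised counts, 4 were members. With 2 females, the data do not separate a difference between the sexes from one between these fish, and this was not tested.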
